A study of Mus musculus with 71 samples.

Results

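The 9 genes described here encode chemokine receptors and chemokines and were chosen by symbol. The receptors were Cxcr4, Cxcr5, Ccr2, Ccr6, Ccr7, Ccr9 and Cx3cr1, and the ligands were Ccl3 and Ccl4. They are 9 of the 25579 genes in the tables aligned to mm10 and 9 of the 24420 genes in the tables aligned to mm9. Expression was deposited as TPM (transcript abundance relative to the library total), which scales reads by gene length and library size, so that levels can be compared between genes. All 9 genes exceeded 1 TPM in at least 1 of the 31 pro-B and progenitor samples, and 8 of them, all except Ccr6, did so in the 17 T-lineage samples.

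The study asked which domains of the B-lineage transcription factor Pax5 are needed for gene regulation in pro-B cells. RNA-seq of poly(A) RNA was performed with cells sorted ex vivo from mice on the C57BL/6 background, and the labels write D for ∆. Pax5 +/+ pro-B cells were analysed in 5 samples. Homozygous deletions of the octapeptide (∆OP/∆OP), of part of the homeodomain (∆HD/∆HD), of both together (∆OP,HD/∆OP,HD) and of the C-terminal regulatory domains (∆CRD1/∆CRD1, ∆CRD2/∆CRD2, ∆CRD1,2/∆CRD1,2) were analysed in 2 samples each, as were the C-terminal deletions over a Pax5 null allele (∆CRD1/-, ∆CRD2/-, ∆CRD1,2/-) and ∆/∆ progenitors. The cells called ∆/∆ came from Vav-Cre Pax5 fl/fl mice, in which Cre acts in haematopoietic cells from the stem cell onwards. A separate experiment held 2 samples each of +/∆ pro-B cells, of Prd/∆ progenitors, in which the remaining allele encodes only the paired (DNA-binding) domain, and of ∆/∆ progenitors. The wild-type T-lineage samples were 2 of lymphoid-primed multipotent progenitors (LMPP) of the bone marrow, 3 each of the CD4-CD8- thymocyte stages DN1, DN2a and DN2b and 2 each of DN3a and DN3b, followed by 2 of DN3a cells from Rag2-/- mice, which cannot rearrange antigen receptor genes. At each of DN1, DN2a and DN2b, 2 of the 3 samples carry the same replicate number, and all 3 were counted as separate samples. The labels do not say whether these are repeat libraries, in which case the spread at these stages would be understated.

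The controls of the Prd experiment also carried Vav-Cre. The ∆OP allele was made by gene targeting in embryonic stem cells and most others with CRISPR-Cas9 in zygotes, and the hemizygous C-terminal mutants were sorted at an age of 3 to 5 wk. The gates differed between genotypes. The ∆CRD1,2/- and first ∆/∆ cells were taken from the Lin- B220+ fraction as Ly6D+ and Kit hi, where Lin- excludes cells stained for CD11b, Gr1, Ly6C and markers of T, NK and red cells. The +/+, ∆CRD1/- and ∆CRD2/- pro-B cells were sorted with a different gate that also used B220 and Kit, and the labels name an alternative gating, without detail, for the progenitors of the Prd experiment. In bulk samples, fewer cells of a type and less RNA per cell cannot be told apart. The sources used here do not state that samples of a group came from separate animals, so that p values measure the spread between these samples, which may be partly technical.

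Chemokines are small secreted proteins that bind receptors coupled to G proteins and direct cell migration. CXCR4, the receptor of CXCL12, retains B cell precursors and other progenitors in the bone marrow. CXCR5 and CCR7 guide mature lymphocytes into the follicles and T cell zones of lymphoid organs, and CCR7 together with CCR9, the receptor of CCL25, takes part in the entry of progenitors into the thymus and their movement within it. CCR6, the receptor of CCL20, is found on mature B cells and some T cells. CCR2 and CX3CR1 are best known from monocytes, macrophages and natural killer cells. CCL3 and CCL4 (macrophage inflammatory proteins 1α and 1β) are ligands that are released rapidly by activated leukocytes.

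Positions are given on GRCm38 after GENCODE M21, in which all 9 genes are protein coding. Of the receptors, 4 lie on chromosome 9. These are Cxcr5 (chr9:44511787-44561877, minus strand), Cx3cr1 (chr9:119901616-120069879, minus strand), Ccr9 (chr9:123678439-123784330, plus strand) and Ccr2 (chr9:124101950-124113557, plus strand), and 317619 bases separate Ccr9 from Ccr2. Cxcr4 lies at chr1:128588199-128592293 on the minus strand, Ccr6 at chr17:8236043-8257141 on the plus strand and Ccr7 at chr11:99144196-99155077 on the minus strand. The ligand genes are neighbours with 13228 bases between them, Ccl3 at chr11:83647844-83649355 on the minus strand and Ccl4 at chr11:83662584-83664683 on the plus strand.

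The regions before the start sites of 6 of the 9 genes were found in the RefSeq promoter table of GRCm38.p6, with 2 starts for Ccr6, whereas Cxcr5, Ccr7 and Ccl4 were not in it. Of these, 4 regions of 250 bases are shown because their genes carry the main contrasts below. Ccr2 and Cx3cr1 were correlated over the 31 pro-B and progenitor libraries, which share genotypes (r = 0.79). Ccr9 was called at every step of the T lineage and Ccl3 had the largest difference of the members between Prd/∆ and ∆/∆ progenitors. Capitals mark the E-box CANNTG, the motif of the E proteins and other basic helix-loop-helix factors, which reads the same on both strands.
Ccr9: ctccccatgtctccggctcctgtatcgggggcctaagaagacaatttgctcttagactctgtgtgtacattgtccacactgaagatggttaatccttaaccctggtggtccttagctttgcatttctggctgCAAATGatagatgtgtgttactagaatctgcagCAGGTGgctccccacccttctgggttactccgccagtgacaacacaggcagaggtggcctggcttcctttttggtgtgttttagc
Ccl3: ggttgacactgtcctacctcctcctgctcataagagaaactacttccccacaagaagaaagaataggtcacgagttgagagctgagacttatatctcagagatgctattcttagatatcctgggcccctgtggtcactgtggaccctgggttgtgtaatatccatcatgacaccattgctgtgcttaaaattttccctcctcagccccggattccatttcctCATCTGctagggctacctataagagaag
Ccr2: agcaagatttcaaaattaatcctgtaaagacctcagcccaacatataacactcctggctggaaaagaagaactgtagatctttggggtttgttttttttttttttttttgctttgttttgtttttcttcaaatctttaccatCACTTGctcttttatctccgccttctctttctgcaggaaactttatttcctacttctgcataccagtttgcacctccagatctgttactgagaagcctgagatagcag
Cx3cr1: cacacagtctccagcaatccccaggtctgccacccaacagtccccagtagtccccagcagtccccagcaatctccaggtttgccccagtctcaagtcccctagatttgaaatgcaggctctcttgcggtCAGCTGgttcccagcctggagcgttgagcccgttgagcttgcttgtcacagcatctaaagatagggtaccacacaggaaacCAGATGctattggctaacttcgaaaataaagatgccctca
The Ccr9 sequence (chr9:123766961-123767210, plus strand) holds 2 E-boxes, which begin at positions -118 and -85 from the start site. The Cx3cr1 sequence (chr9:120068297-120068546, minus strand) also holds 2, and 1 each was found for Ccl3 (chr11:83649379-83649628, minus strand) and Ccr2 (chr9:124101933-124102182, plus strand). The region of Cxcr4 held none, and those of the Ccr6 starts held 0 and 2. Of 32851 RefSeq promoter regions of this length, 66.2% hold CANNTG, so that these matches are a description of the sequences only.

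Depth and identity of the samples were examined first. The 31 mm10 libraries held 10018678 to 43784791 reads as recovered from the TPM values, with the lowest number in a ∆/∆ library. Pax5 mRNA was at 1609 to 1697 TPM in ∆/∆ progenitors, so that the deletion is not seen at the level of the whole gene. The T cell gene Cd3e did not exceed 0.438 TPM in any pro-B or progenitor library and was at 2181 to 2219 TPM in DN3a cells, and Kit was at 308 to 344 TPM in LMPP and at 10.4 to 13 TPM in DN3b cells. RNA of macrophage markers was uneven. The summed level of 16 macrophage markers was between 460.4 and 1031 TPM in 8 of the 31 libraries and between 111 and 275 TPM in the other 23. The 8 included 1 library each of +/+, ∆OP,HD/∆OP,HD, ∆CRD2/∆CRD2 and ∆CRD2/- and both of ∆OP/∆OP and of the first ∆/∆ progenitors. In these ∆/∆ libraries Mpeg1 alone was at 158 to 334 TPM. Mpeg1, Cd163 and Cd68 were higher there than in +/+ cells, whereas C1qa, C1qb, C1qc and Hmox1 were lower.

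The receptor Cxcr4 was by far the most abundant of the 9 mRNAs in every pro-B and progenitor group, followed in +/+ cells by Cxcr5 and Ccr7. Mean levels in +/+ pro-B cells were 510.4 ± 143 TPM for Cxcr4, 36.3 ± 11.1 TPM for Cxcr5 and 33.7 ± 8.38 TPM for Ccr7 (SD, n = 5). The other 6 genes were near the limit of expression, at 2.59 ± 0.661 TPM for Ccl4, 1.39 ± 1.13 TPM for Ccr2, 1.15 ± 0.452 TPM for Ccl3, 1.00 ± 0.881 TPM for Ccr9, 0.806 ± 0.391 TPM for Cx3cr1 and 0.0166 ± 0.037 TPM for Ccr6.

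**Figure D1:**
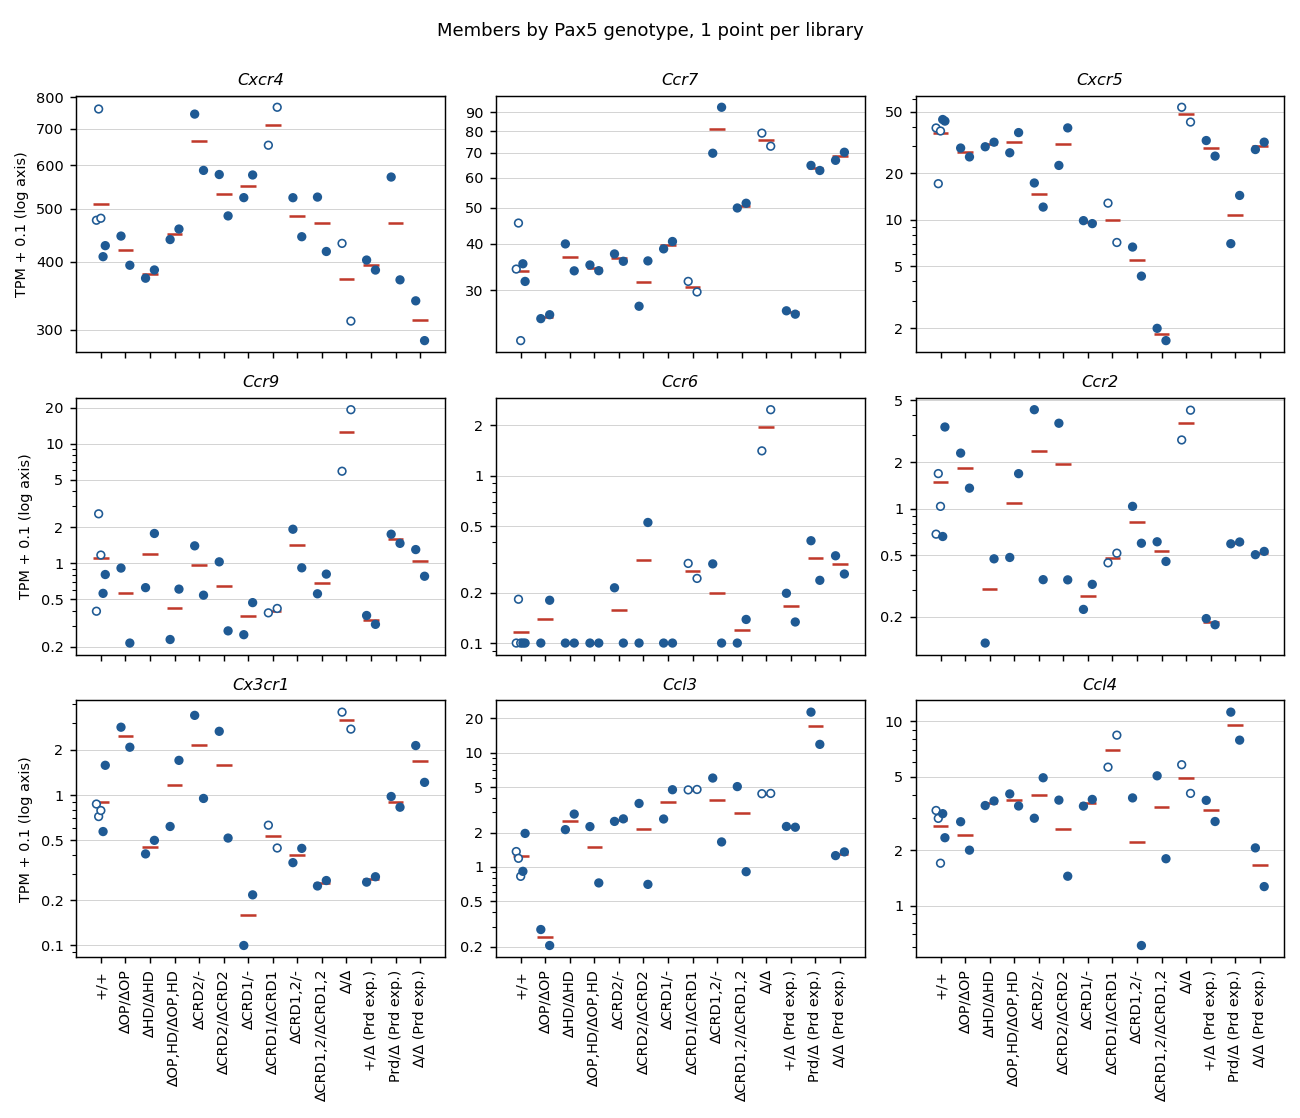
Levels of the 9 genes in TPM + 0.1 on log axes, in each of the 31 pro-B and progenitor libraries by genotype. Open points are libraries sequenced with 50-nucleotide reads, filled points those sequenced with 100-nucleotide reads, and red lines are group means. All reads were trimmed to 50 nucleotides before mapping. Cxcr5 was at 1.56 and 1.89 TPM in ∆CRD1,2/∆CRD1,2 pro-B cells against 17.0 to 44.4 TPM in +/+ pro-B cells, and Ccl3 was highest in Prd/∆ progenitors.

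Differences between genotypes were tested with limma on log2(TPM + 0.1), leaving out genes that never passed 1 TPM within a model. A gene was called with a Benjamini-Hochberg adjusted p under 0.05, and each fold change below is a difference on this scale with its standard error, which understates changes of genes near 0. The comparisons with +/+ share the +/+ samples, as do those with +/∆, and are therefore given side by side. None of the 8 members tested was called in pro-B cells lacking the central domains, where few genes changed at all. The called share of all genes was 0.485% for ∆OP/∆OP, 0.639% for ∆HD/∆HD and 1.22% for ∆OP,HD/∆OP,HD against the 2 +/+ samples of the same read length. At an unadjusted p under 0.05 there were 3, 2 and 1 members, edgeR on recovered reads called 0 in each, and DESeq2 called 1, 1 and 0. These were Cxcr5 in ∆OP/∆OP pro-B cells (with 7.42% of all genes called by DESeq2) and Ccr2 in ∆HD/∆HD pro-B cells (3.6%).

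Loss of CRD2 alone gave no called member either. Of 9 members tested in ∆CRD2/- pro-B cells none was called, beside 0.513% of all genes, with 2 members at an unadjusted p under 0.05, 0 called by edgeR and 1, Cxcr5, by DESeq2 (1.9% of all genes). None of 8 was called in ∆CRD2/∆CRD2 pro-B cells, beside 0.0447% of all genes, and here the unadjusted p, edgeR and DESeq2 also gave 0. Without CRD1, 2 of 9 members were lower in ∆CRD1/- pro-B cells, Cxcr5 and Cx3cr1, beside 8.51% of all genes, and 1 of 8, Cxcr5, in ∆CRD1/∆CRD1 pro-B cells, beside 5.98%. Without both regions, Cxcr5 was lower and Ccr7 higher among 9 members in ∆CRD1,2/- cells, beside 20.2% of all genes, and Cxcr5 was lower among 8 in ∆CRD1,2/∆CRD1,2 cells, beside 22.2%. In ∆/∆ progenitors 5 of 9 members were called higher, beside 31.7% of all genes called in either direction. These were Ccr7, Ccr9, Cx3cr1, Ccl3 and Ccr6, and Ccr6 is not counted further because it passed 1 TPM in no other group of this model and so entered the test only where it was high.

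The effect of losing CRD2 in addition to CRD1 was examined in both gene doses. Among 9 members, none was called between ∆CRD1,2/- and ∆CRD1/- cells, beside 2.17% of all genes, although 3 had an unadjusted p under 0.05 and Ccr7 was called by edgeR (3.18% of all genes) and by DESeq2 (5.31%). Between the homozygous genotypes, 1 of 8 members, Cxcr5, was lower in ∆CRD1,2/∆CRD1,2 than in ∆CRD1/∆CRD1 cells, beside 1.42% of all genes. The interaction, which asks whether the effect of losing CRD2 differed between the gene doses, was called for none of 8 members, beside 0.0375% of all genes, with 2 members at an unadjusted p under 0.05, 0 called by edgeR and Cxcr5 called by DESeq2 (0.551%).

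In the Prd experiment, which lacks 2 of the 9 genes because Ccr2 and Ccr6 stayed at or below 1 TPM, the ligands separated the progenitors. Both Ccl3 and Ccl4 were higher in Prd/∆ than in ∆/∆ progenitors, 2 of 7 members beside 1.97% of all genes. Against +/∆ pro-B cells, 6 of 7 members changed in Prd/∆ progenitors, beside 40.7% of all genes, and 4 of 7 in ∆/∆ progenitors, beside 39.9%. Ccr9 and Cx3cr1, called in both, passed 1 TPM in this experiment only in the progenitors in which they were higher, Cx3cr1 only in ∆/∆. With such shares of all genes called, counts of this size do not set the members apart.

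**Figure D2:**
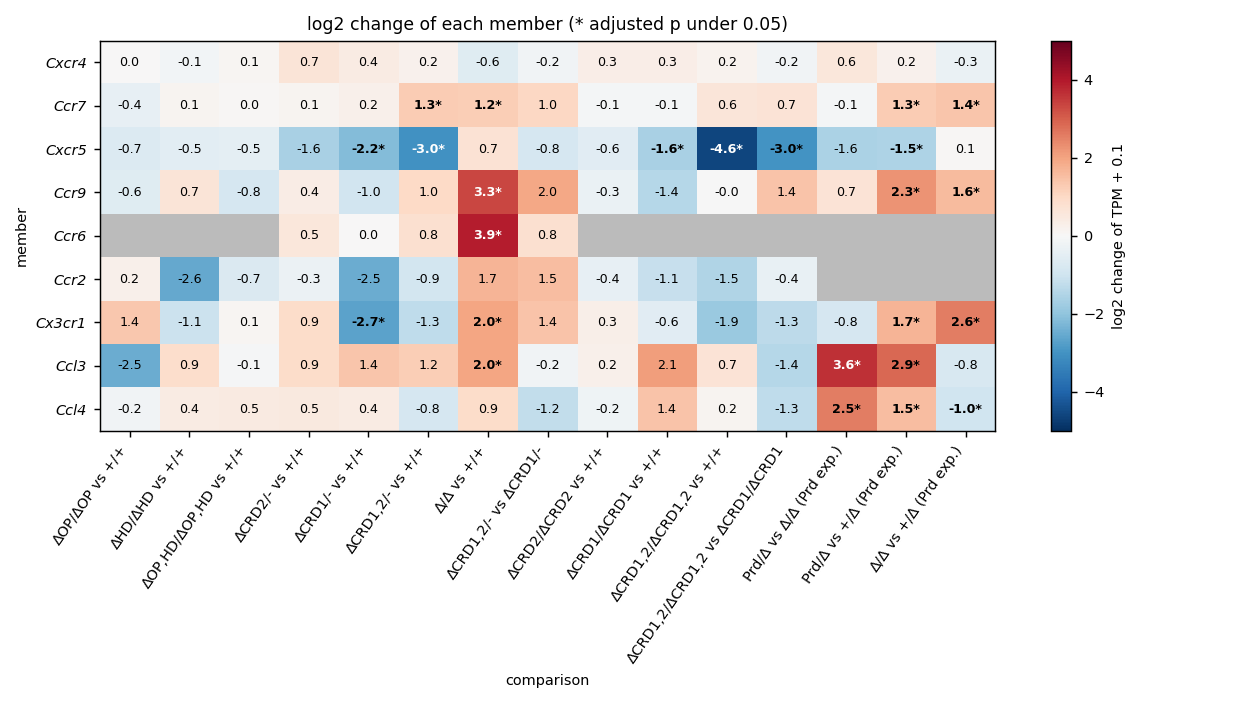
Log2 fold changes on the log2(TPM + 0.1) scale of the 9 genes in the genotype comparisons. Colour gives direction and size, stars mark an adjusted p under 0.05 and grey marks genes that were not tested. Cxcr5 is called lower in the 4 genotypes without CRD1 and in Prd/∆ against +/∆, and Ccr7 is called higher in both ∆/∆ comparisons. Ccr9 and Cx3cr1 carry stars there too, but in the Prd experiment they were tested only through progenitors in which they were high.

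Cxcr4, the receptor of CXCL12, had group means from 313 to 710 TPM. In +/+ pro-B cells the 5 samples were at 408, 428, 476, 479.9 and 761 TPM, and replicate 1 stood apart as the highest. The 2 samples were at 432 and 311 TPM in ∆/∆ progenitors and at 339 and 287 TPM in the ∆/∆ progenitors of the Prd experiment, whose +/∆ pro-B cells had 402 and 386 TPM. The highest group was ∆CRD1/∆CRD1 with 653 and 766 TPM. The ranges overlap that of +/+ pro-B cells in all groups except the ∆/∆ progenitors and +/∆ cells of the Prd experiment and the ∆HD/∆HD cells, with 373 and 386 TPM, which lie below it. The upper end of the +/+ range is set by replicate 1 alone, and the next sample was at 479.9 TPM. Both samples of ∆CRD1/∆CRD1, ∆CRD2/-, ∆CRD1/- (523 and 576 TPM) and ∆CRD2/∆CRD2 cells (577 and 485 TPM) were above that next sample. Cxcr4 was called by limma in no comparison between genotypes. The nearest was ∆/∆ against +/+ with -0.61 ± 0.22 (limma, adjusted p = 0.0524), with an interval of the difference from -1.08 to -0.13, which edgeR (adjusted p = 0.0380) and DESeq2 (adjusted p = 0.0185) on recovered reads did call. In ∆CRD2/- cells, with 744 and 587 TPM, the difference was 0.66 ± 0.24 (limma, adjusted p = 0.419). Its ligand Cxcl12 did not exceed 4.29 TPM in any of the 31 libraries.

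Cxcr5, the receptor of the follicular chemokine CXCL13, was lower in all 4 genotypes without CRD1. The +/+ samples were at 17.0, 37.4, 39.1, 43.4 and 44.4 TPM, with replicate 1 the lowest. The level was 9.78 and 9.36 TPM in ∆CRD1/- cells, 6.57 and 4.23 TPM in ∆CRD1,2/- cells, 12.7 and 7.04 TPM in ∆CRD1/∆CRD1 cells and 1.89 and 1.56 TPM in ∆CRD1,2/∆CRD1,2 cells. All 8 of these samples were below the lowest +/+ sample. The difference from +/+ was -2.19 ± 0.37 for ∆CRD1/- (limma, adjusted p = 0.00368), -3.03 ± 0.37 for ∆CRD1,2/- (adjusted p = 0.000215) and -4.60 ± 0.43 for ∆CRD1,2/∆CRD1,2 (adjusted p = 8.54e-05), and the latter 2 calls held under every alternative run.

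In homozygous ∆CRD1/∆CRD1 cells the difference was -1.62 ± 0.39 (limma, adjusted p = 0.0421). This call was lost on leaving out either mutant sample or any of +/+ replicates 2 to 5 (adjusted p up to 0.366) and was not reached among the 50-nucleotide samples alone (adjusted p = 0.0829). Between ∆CRD1,2/∆CRD1,2 and ∆CRD1/∆CRD1 cells the difference was -2.98 ± 0.58 (limma, adjusted p = 0.0401), and it was lost on leaving out any of their 4 samples (adjusted p = 0.113 to 0.214). The read lengths of these genotypes differ, and no fit within 1 read length was possible. The corresponding difference between ∆CRD1,2/- and ∆CRD1/- was -0.85 ± 0.37 (adjusted p = 0.322), and the interaction between CRD2 loss and gene dose was 2.13 ± 0.66 (adjusted p = 0.666), or 2.26 after median-of-ratios scaling, which moved the median of all genes by 0.121 in this comparison. DESeq2 on the recovered reads gave 2.30 for the interaction of Cxcr5 and placed it past the threshold (adjusted p = 0.0418).

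With CRD2 alone missing, Cxcr5 was not called by limma. The ∆CRD2/- samples had 17.2 and 12.0 TPM, a difference of -1.60 ± 0.37 from +/+ (limma, adjusted p = 0.111), and without +/+ replicate 1, the lowest of its group, this passed the threshold (adjusted p = 0.023). The ∆CRD2/∆CRD2 samples, at 22.4 and 39.2 TPM, lay within the +/+ range (adjusted p = 0.887). Among the central domains the level was 29.0 and 25.4 TPM in ∆OP/∆OP, 29.6 and 31.7 TPM in ∆HD/∆HD and 27 and 36.5 TPM in ∆OP,HD/∆OP,HD cells, all below the matched +/+ samples with 43.4 and 44.4 TPM. The differences of -0.69 ± 0.16, -0.52 ± 0.16 and -0.48 ± 0.16 did not pass the adjusted threshold (adjusted p = 0.101, 0.242 and 0.234).

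In progenitors without Pax5, Cxcr5 was not called. The ∆/∆ progenitors were at 53.3 and 42.7 TPM, with a difference of 0.71 ± 0.33 from +/+ (limma, adjusted p = 0.137), and the ∆/∆ progenitors of the Prd experiment were at 28.4 and 31.7 TPM, beside 32.4 and 25.7 TPM in +/∆ pro-B cells. The Prd/∆ progenitors, with 6.92 and 14.3 TPM, were below both. They differed from +/∆ cells by -1.53 ± 0.32 (limma, adjusted p = 0.0102, lost without either +/∆ sample) and from ∆/∆ progenitors by -1.58 ± 0.32, which limma did not call (adjusted p = 0.0686) but edgeR (adjusted p = 0.0235) and DESeq2 (adjusted p = 2.52e-06) did. The 5 groups with the lowest means of Cxcr5 were therefore ∆CRD1,2/∆CRD1,2, ∆CRD1,2/-, ∆CRD1/-, ∆CRD1/∆CRD1 and Prd/∆, and the group with the highest mean was ∆/∆.

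Ccr7, the receptor of CCL19 and CCL21, was higher in ∆CRD1,2/- cells and in ∆/∆ and Prd/∆ progenitors. The 5 +/+ samples were at 21.9, 31.6, 34.1, 35.3 and 45.4 TPM. The ∆/∆ progenitors had 79.0 and 72.9 TPM, the ∆CRD1,2/- cells 69.8 and 92.6 TPM and the ∆CRD1,2/∆CRD1,2 cells 49.8 and 51.2 TPM, all above the highest +/+ sample. The difference from +/+ was 1.23 ± 0.24 for ∆/∆ (limma, adjusted p = 0.00281) and 1.27 ± 0.27 for ∆CRD1,2/- (adjusted p = 0.00697, and 0.0567 without its replicate 2, which had 92.6 TPM). For ∆CRD1,2/∆CRD1,2 it was 0.60 ± 0.28 and not called (adjusted p = 0.166). With CRD1 alone missing Ccr7 stayed within the +/+ range, at 38.7 and 40.5 TPM in ∆CRD1/- and 31.6 and 29.6 TPM in ∆CRD1/∆CRD1 cells. The difference between ∆CRD1,2/- and ∆CRD1/- cells was 1.02 ± 0.27 (limma, adjusted p = 0.0853), and it was called when only the 100-nucleotide samples were fitted (adjusted p = 0.0186).

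The Prd experiment gave the tightest values of Ccr7. The +/∆ pro-B cells had 26.4 and 25.8 TPM, the Prd/∆ progenitors 64.7 and 62.7 TPM and the ∆/∆ progenitors 66.8 and 70.2 TPM. Ccr7 therefore rose by 1.28 ± 0.08 in Prd/∆ (limma, adjusted p = 8.91e-05) and by 1.39 ± 0.08 in ∆/∆ progenitors (adjusted p = 7.52e-05), and both calls held under every alternative run. Between the latter genotypes the difference was -0.10 ± 0.08, with an interval from -0.30 to 0.09. Only the progenitors carry the label of an alternative gating, and its part in the difference cannot be told apart from the genotype.

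Ccr9, the receptor of CCL25, was low in all pro-B cells and higher in ∆/∆ progenitors. The +/+ samples were at 0.296, 0.458, 0.703, 1.07 and 2.49 TPM and the ∆/∆ progenitors at 5.79 and 19.2 TPM, without overlap. The difference was 3.33 ± 0.80 (limma, adjusted p = 0.0084), and the call was lost without the higher ∆/∆ sample (adjusted p = 0.106). In the Prd experiment Ccr9 was at 0.264 and 0.207 TPM in +/∆ cells, 1.65 and 1.36 TPM in Prd/∆ and 1.20 and 0.677 TPM in ∆/∆ progenitors. There it passed 1 TPM only in the progenitors and so was tested only through the groups where it was high. It rose by 2.26 ± 0.43 in Prd/∆ (limma, adjusted p = 0.00702, held under every alternative run) and by 1.59 ± 0.43 in ∆/∆ progenitors (adjusted p = 0.0264, lost without either +/∆ sample or ∆/∆ replicate 1).

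The ∆/∆ progenitors of the 2 experiments thus differed in Ccr9, with 5.79 to 19.2 TPM in the first and 0.677 to 1.20 TPM in the Prd experiment. The summed RNA of markers of plasmacytoid dendritic cells, a cell type that expresses Ccr9, was also higher in the first. The defining marker Siglech was at 70.6 to 195 TPM in the first and at 17.3 to 23.5 TPM in the second, against 0.551 to 13.9 TPM in +/+ pro-B cells, and the sum of 13 plasmacytoid dendritic cell markers was 1677 and 2546 TPM against 947 and 1099 TPM, with 1004 to 1364 TPM in +/+ pro-B cells. The Prd/∆ progenitors had 18.2 to 19.0 TPM of Siglech. In each experiment, Siglech and Ccr9 were both higher in ∆/∆ progenitors than in every control sample. The sum of 13 markers, however, was above the +/+ range only in the first ∆/∆ progenitors, not in those of the Prd experiment. That +/+ range comes from outside the Prd experiment, and the sum in its own +/∆ controls is not given here. The part of plasmacytoid dendritic cells in the result was not tested. Experiment, read length and gating, which the labels call alternative for the progenitors of the Prd experiment, cannot be told apart between the 2 sets of ∆/∆ progenitors.

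Ccr6, the receptor of CCL20, was close to absent. It was at 0 reads in 15 of the 31 libraries, where 3 reads would have corresponded to 0.0805 to 0.144 TPM, and in +/+ pro-B cells only replicate 1 had reads (2 reads, 0.0828 TPM). The ∆/∆ progenitors had 21 and 19 reads, or 1.31 and 2.39 TPM. The ratio of the pooled levels, from 40 against 2 reads, was 102 with an exact 95% interval from 26.4 to 869.8. The interval covers counting error only and not the spread between libraries. Because Ccr6 entered the test only where it was high, this ratio does not test the genotype. In the ∆/∆ progenitors of the Prd experiment Ccr6 was at 0.233 and 0.159 TPM, and in no other group did a sample exceed 0.426 TPM. Of 10 markers of immature and mature B cells tested, 1 was higher and 6 were lower in the first ∆/∆ progenitors than in +/+ cells. Among the lower ones, Ms4a1, which the +/+ pro-B cells also expressed, was at 0.263 to 0.305 TPM against 2.14 to 30.5 TPM. The part of mature B cells in the Ccr6 level was not tested.

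Ccr2 and Cx3cr1, the receptors of CCL2 and of CX3CL1, varied widely between samples of 1 genotype in some groups, though not in all. Ccr2 was at 0.561, 0.584, 0.934, 1.58 and 3.27 TPM in +/+ pro-B cells, at 4.25 and 0.248 TPM in ∆CRD2/- and at 3.46 and 0.247 TPM in ∆CRD2/∆CRD2 cells. Cx3cr1 was at 0.472, 0.620, 0.689, 0.772 and 1.48 TPM in +/+ pro-B cells, at 3.29 and 0.850 TPM in ∆CRD2/- and at 2.55 and 0.418 TPM in ∆CRD2/∆CRD2 cells. In each of these 3 groups the library with the most Ccr2 was also the one with the most Cx3cr1 and with the highest macrophage and granulocyte marker sums.

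Over all 14 groups, the library with the most Cx3cr1 had the highest macrophage sum in 11 and the library with the most Ccr2 in 10, whereas 1 library was highest for both receptors in 7. All groups except +/+ hold 2 libraries, where unrelated values would share the highest library in 1 of 2 cases. The 7 for both receptors is near that level, and these counts are a description only. In the 8 libraries with macrophage marker sums above 450 TPM, Ccr2 was at 1.26 to 4.25 TPM with a median of 2.97 TPM. These include both libraries of the first ∆/∆ progenitors, in which only part of the markers was higher than in +/+ cells. In the other 23, Ccr2 was at 0.0356 to 1.58 TPM with a median of 0.404 TPM. For Cx3cr1 the values were 1.48 to 3.46 TPM with a median of 2.60 TPM, against 0 to 2.03 TPM with a median of 0.418 TPM. The macrophage sum was 1031 TPM in ∆CRD2/- replicate 1 and 254 TPM in replicate 2, 891 and 188 TPM in the ∆CRD2/∆CRD2 samples, and 599 TPM in +/+ replicate 4 against 153 to 275 TPM in the other +/+ samples. All 16 macrophage markers were above 0 in every library except ∆/∆ replicate 2, where 1 was at 0. The part of myeloid cells in the levels of Ccr2 and Cx3cr1 was not tested.

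**Figure D3:**
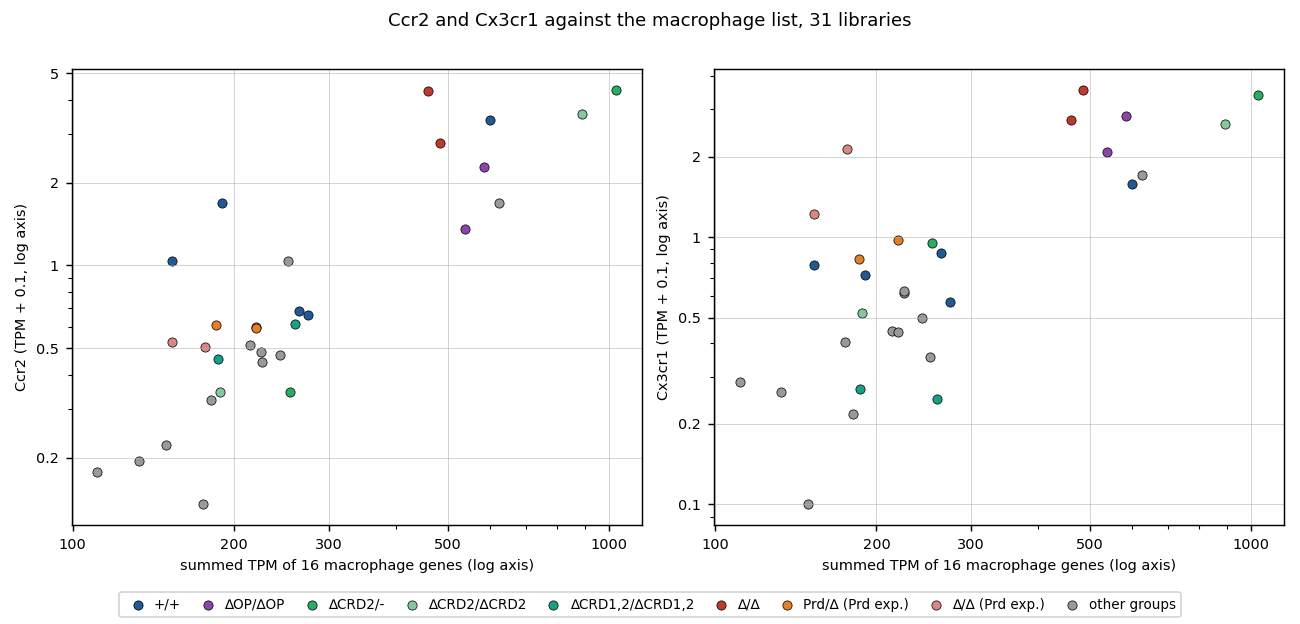
Ccr2 and Cx3cr1 in TPM + 0.1 against the summed TPM of 16 macrophage markers in the 31 libraries, both on log axes, with points coloured by genotype. The 8 libraries with sums above 450 TPM lie at 1.26 to 4.25 TPM of Ccr2 and at 1.48 to 3.46 TPM of Cx3cr1.

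Ccr2 was called by limma in no genotype comparison. In ∆CRD1/- cells, with 0.124 and 0.225 TPM, its difference from +/+ was -2.47 ± 1.06 (limma, adjusted p = 0.205), and DESeq2 called it lower here (adjusted p = 0.00375) and in ∆HD/∆HD cells (adjusted p = 0.0171). Cx3cr1 was called lower in the same cells, which had 0 and 6 reads (0 and 0.117 TPM, with 3 reads corresponding to 0.0591 TPM in the library at 0). The difference of -2.69 ± 0.68 depends on the pseudocount (limma, adjusted p = 0.0331). It was lost among the 100-nucleotide samples alone (adjusted p = 0.104), and without +/+ replicate 4 (adjusted p = 0.179), +/+ replicate 1 or either ∆CRD1/- sample. The ∆CRD1/- libraries had macrophage sums of 149 and 181 TPM, near the low end of the +/+ samples.

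In ∆/∆ progenitors Cx3cr1 was at 3.46 and 2.64 TPM, above all +/+ samples, and the difference was 1.98 ± 0.62 (limma, adjusted p = 0.0316, lost on leaving out either ∆/∆ sample or any of +/+ replicates 1, 2 and 5). These libraries had macrophage sums of 485 and 460.4 TPM, but of the 16 genes 3 were higher (Mpeg1, Cd163 and Cd68) and 4 lower than in +/+ cells, with a median of -0.86. Mpeg1 alone was at 158 to 334 TPM against 3.88 to 19.4 TPM, whereas the macrophage complement gene C1qa was at 1.45 to 1.56 TPM against 6.09 to 16.5 TPM. The Lin- gate of these progenitors excluded CD11b+, Gr1+ and Ly6C+ cells. In the Prd experiment the macrophage sums were lower, at 111 to 219.8 TPM, and Cx3cr1 was at 0.164 and 0.186 TPM in +/∆ cells, 0.878 and 0.730 TPM in Prd/∆ and 2.03 and 1.11 TPM in ∆/∆ progenitors. There it passed 1 TPM only in ∆/∆ progenitors and so was tested only through the group where it was high. It rose by 1.71 ± 0.45 in Prd/∆ (limma, adjusted p = 0.0234, lost without either +/∆ sample or Prd/∆ replicate 1) and by 2.55 ± 0.45 in ∆/∆ progenitors (adjusted p = 0.00534, held under every alternative run). Ccr2 in these groups was at 0.0951 and 0.0780 TPM, 0.493 and 0.509 TPM, and 0.404 and 0.429 TPM, too low to be tested.

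Ccl3 and Ccl4, the chemokine ligands, were low in pro-B cells and highest in Prd/∆ progenitors. Ccl3 was at 22.5 and 11.7 TPM in Prd/∆ progenitors, 1.16 and 1.25 TPM in ∆/∆ progenitors and 2.16 and 2.13 TPM in +/∆ pro-B cells. Ccl4 was at 11.1 and 7.79 TPM, 1.95 and 1.17 TPM, and 3.62 and 2.76 TPM in the same order. The Prd/∆ samples did not overlap either of the other groups for either gene. Against ∆/∆ progenitors Ccl3 rose by 3.65 ± 0.32 (limma, adjusted p = 0.00749) and Ccl4 by 2.54 ± 0.31 (adjusted p = 0.0193). Both calls were lost without either ∆/∆ sample, that of Ccl4 also without Prd/∆ replicate 1. With 1 ∆/∆ sample left, almost no gene at all was called in this comparison, so that this loss is not particular to the ligands. Against +/∆ cells Ccl3 rose by 2.86 ± 0.32 (limma, adjusted p = 0.00082, held under every alternative run) and Ccl4 by 1.53 ± 0.31 (adjusted p = 0.00976, lost without +/∆ replicate 2). Ccl4 was lower in ∆/∆ progenitors than in +/∆ cells by -1.01 ± 0.31 (adjusted p = 0.0424), but edgeR (adjusted p = 0.0783) and DESeq2 (adjusted p = 0.115) did not call it, and the call was lost without either +/∆ sample or ∆/∆ replicate 2.

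The immediate-early genes, which cells induce within minutes of stimulation or handling, moved with the ligands in this experiment. The sum of 15 such genes was 2174 and 2049 TPM in Prd/∆ progenitors, 713 and 782 TPM in ∆/∆ progenitors and 1266 and 1375 TPM in +/∆ cells. Fos alone was at 47.9 to 51.0 TPM in Prd/∆ and at 1.64 to 1.68 TPM in ∆/∆ progenitors. The ∆CRD1,2/∆CRD1,2 samples showed a similar split, with 1464 TPM of immediate-early genes, 4.94 TPM of Ccl3 and 4.95 TPM of Ccl4 in replicate 1 and 648, 0.809 and 1.69 TPM in replicate 2. In ∆CRD1,2/- replicate 1, Ccl3 was at 5.89 TPM with an immediate-early sum of 669 TPM. Over the 31 libraries, which share genotypes, the correlation with the log2 sum was r = 0.47 for Ccl3 and r = 0.54 for Ccl4. The part of handling in the ligand levels was not tested.

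**Figure D4:**
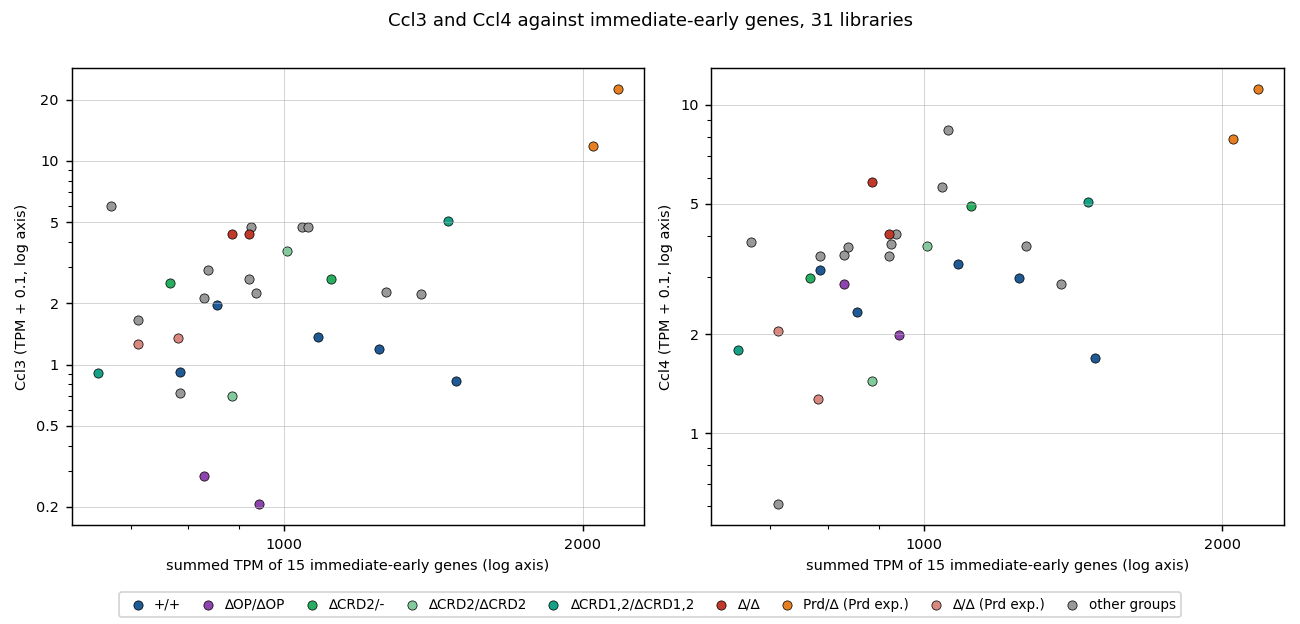
Ccl3 and Ccl4 in TPM + 0.1 against the summed TPM of 15 immediate-early genes in the 31 libraries, on log axes, with points coloured by genotype. The Prd/∆ progenitors, at 2049 and 2174 TPM of immediate-early genes, have the highest Ccl3 and 2 of the 3 highest Ccl4 levels.

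In the C-terminal series Ccl3 was at 0.728, 0.815, 1.09, 1.26 and 1.87 TPM in +/+ cells and at 4.27 and 4.30 TPM in ∆/∆ progenitors. The difference of 1.99 ± 0.53 was called (limma, adjusted p = 0.0147) and was lost without either ∆/∆ sample (adjusted p = 0.0782 to 0.0792). The ∆CRD1/∆CRD1 cells, at 4.62 and 4.66 TPM, were also above all +/+ samples, and their difference of 2.10 ± 0.80 was called among the 50-nucleotide samples alone (adjusted p = 0.0204) but not in the full model (adjusted p = 0.185). Ccl3 was at 2.53 and 4.64 TPM in ∆CRD1/- cells (1.39 ± 0.58, adjusted p = 0.194). The lowest levels, 0.184 and 0.106 TPM, were those of ∆OP/∆OP cells, against 0.815 and 1.87 TPM in the matched +/+ samples, a difference of -2.47 ± 0.70 that did not pass (adjusted p = 0.135). Ccl4 was at 1.60, 2.23, 2.87, 3.05 and 3.18 TPM in +/+ cells and at 5.53 and 8.29 TPM in ∆CRD1/∆CRD1 cells (1.43 ± 0.54, adjusted p = 0.178), and was not called in any comparison with +/+. Ccl3 and Ccl4 are similar neighbouring genes. The values carry a label of unique alignments, so that reads matching both genes may be missing from their levels.

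The T-lineage samples, from a separate alignment, were analysed on their own. Neighbouring stages share samples between comparisons, and median-of-ratios scaling of the libraries moved the median change of all genes by 0.151 in the comparison of DN2a with DN1, by -0.271 in that of DN3a with DN2b, by 0.261 in that of DN3b with DN3a and by 0.178 in that of Rag2-/- DN3a with DN3a. Changes after this rescaling are therefore given for those steps. The rescaling also moved the balance of all called genes, from 1464 higher and 3085 lower to 2036 and 2707 for DN2a, from 4232 and 1943 to 2708 and 2959 for DN3a, from 1909 and 5286 to 2941 and 4163 for DN3b and from 931 and 2629 to 1634 and 2154 for Rag2-/- DN3a cells. Of 8 members tested, 3 changed from LMPP to DN1 (beside 18.6% of all genes), 6 from DN1 to DN2a (33.7%), 4 from DN2a to DN2b (18.2%), 4 from DN2b to DN3a (45.8%), 6 from DN3a to DN3b (53.4%) and 5 between Rag2-/- and wild-type DN3a cells (26.4%).

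Ccr9 was called at every step between stages. Its level was 9.24 and 5.71 TPM in LMPP, 20.6, 18.8 and 18.1 TPM in DN1, and only 1.11, 0.749 and 0.949 TPM in DN2a cells. It was 7.90, 6.98 and 14.4 TPM in DN2b, 84.5 and 70.5 TPM in DN3a and 39.3 and 29.2 TPM in DN3b cells. No neighbouring stages overlapped, and the order of the wild-type stages from the top was DN3a, DN3b, DN1, DN2b, LMPP and DN2a by mean, where DN2b and LMPP overlapped. Ccr9 rose by 1.38 ± 0.29 into DN1 (limma, adjusted p = 0.004, lost without the LMPP sample at 5.71 TPM), fell by 4.23 ± 0.26 into DN2a (adjusted p = 1.12e-07, rescaled -4.09), and rose by 3.19 ± 0.26 into DN2b (adjusted p = 1.81e-06) and by 3.04 ± 0.29 into DN3a (adjusted p = 3.34e-06, rescaled 2.77). It fell by 1.19 ± 0.32 into DN3b (adjusted p = 0.00686), which was lost after rescaling (-0.90, adjusted p = 0.058) and without DN3a replicate 1 or DN3b replicate 2. In Rag2-/- DN3a cells, with 31.7 and 22.5 TPM, it was lower than in wild-type DN3a cells (-1.53 ± 0.32, adjusted p = 0.00399, rescaled -1.34).

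Ccr7, in contrast, was present in LMPP and DN1 and low from DN2a onwards. It was at 14.9 and 14.1 TPM in LMPP, 13.4, 13.2 and 13.7 TPM in DN1 and 2.59, 3.13 and 2.26 TPM in DN2a cells. It fell by 2.31 ± 0.25 into DN2a (limma, adjusted p = 1.23e-05, rescaled -2.15), the same step as the fall of Ccr9. Later levels were 2.25 to 3.19 TPM in DN2b, 2.32 and 1.42 TPM in DN3a and 5.03 and 2.50 TPM in DN3b cells. The difference between DN3a and DN2b cells (-0.57 ± 0.28, adjusted p = 0.105) was called after rescaling (-0.83, adjusted p = 0.0214). The rise into DN3b (0.93 ± 0.30, adjusted p = 0.0186, rescaled 1.20) was lost without DN3a replicate 2 or DN3b replicate 1, and the lower level in Rag2-/- DN3a cells, 0.953 and 0.931 TPM, was lost after rescaling (-0.71, adjusted p = 0.0845).

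**Figure D5:**
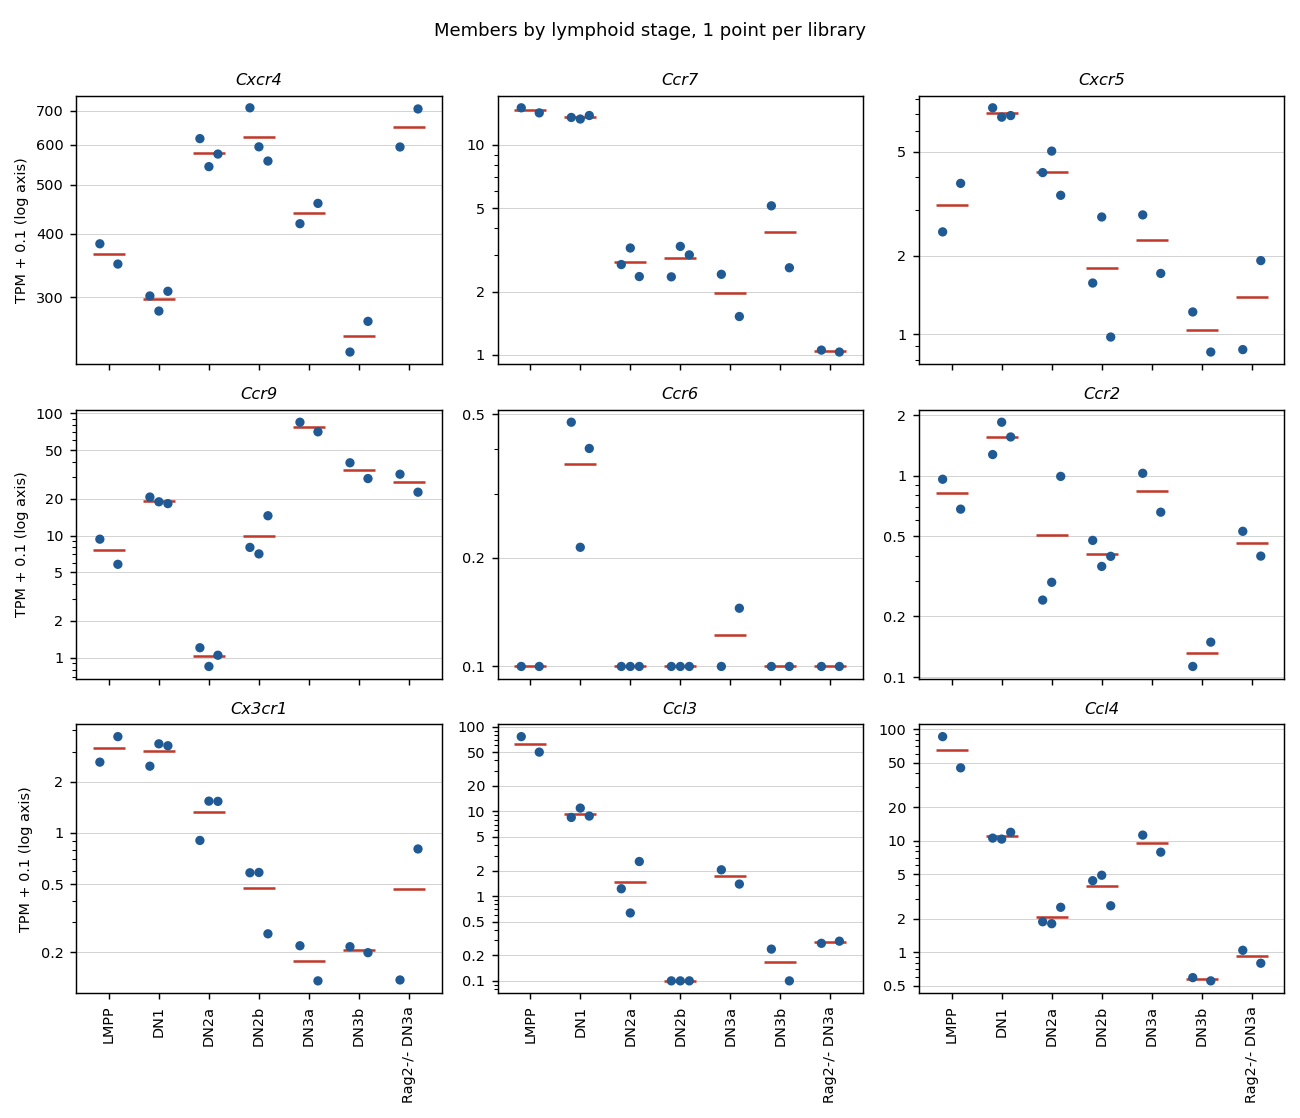
Levels of the 9 genes in TPM + 0.1 on log axes in the 17 T-lineage libraries, from LMPP to DN3b and in Rag2-/- DN3a cells, with red lines at group means. Ccr9 drops to 0.749 to 1.11 TPM in DN2a and reaches 70.5 and 84.5 TPM in DN3a cells, while Ccl3 and Ccl4 are highest in LMPP.

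Cxcr4 was again the most abundant member at every stage. It was at 382 and 348 TPM in LMPP and 281, 301 and 308 TPM in DN1, and then at 543, 575 and 617 TPM in DN2a and 557, 594 and 709 TPM in DN2b cells. It rose by 0.96 ± 0.11 into DN2a (limma, adjusted p = 2.18e-05, rescaled 1.12). It was at 419 and 459 TPM in DN3a and 233 and 268 TPM in DN3b cells, and fell by 0.49 ± 0.12 (adjusted p = 0.00512, rescaled -0.77, lost without DN3a replicate 1 at 0.056) and by 0.81 ± 0.13 (adjusted p = 0.000186, rescaled -0.53). The Rag2-/- DN3a cells, with 594 and 706 TPM, were above wild-type DN3a cells (0.56 ± 0.13, adjusted p = 0.00788, rescaled 0.75), and this was lost without DN3a replicate 1 or Rag2-/- replicate 2.

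Cxcr5 was low throughout, with its highest levels in DN1 cells at 6.70, 6.79 and 7.28 TPM, against 2.37 and 3.69 TPM in LMPP (1.20 ± 0.43, limma, adjusted p = 0.0682, and 0.0401 after rescaling). It was at 3.31, 4.07 and 4.94 TPM in DN2a and 0.876, 1.47 and 2.72 TPM in DN2b cells, a fall of 1.35 ± 0.38 (adjusted p = 0.0236, lost on leaving out any of 3 of the samples, adjusted p up to 0.0824). Ccr2 was at 1.17, 1.46 and 1.74 TPM in DN1 and fell by 1.90 ± 0.45 into DN2a (adjusted p = 0.00597, rescaled -1.77), where it was at 0.141, 0.196 and 0.893 TPM, but it passed 1 TPM at no stage other than DN1 and so was tested only through the stage where it was high. It was also lower in DN3b (0.0128 and 0.0490 TPM) than in DN3a cells (0.928 and 0.559 TPM, adjusted p = 0.00102, rescaled -2.46). Cx3cr1 had its highest levels early, with 2.50 and 3.57 TPM in LMPP and 2.36 to 3.23 TPM in DN1, 0.804 to 1.44 TPM in DN2a, 0.156 to 0.487 TPM in DN2b and 0.118 and 0.0357 TPM in DN3a cells, but no step was called. The step from DN2a to DN2b was called after rescaling (-1.64, adjusted p = 0.0367), and with a pseudocount of 1 it (adjusted p = 0.0235) and the step into DN2a (adjusted p = 0.0057) were called. The macrophage marker sum was 559.6 and 378 TPM in LMPP, 124 to 152 TPM in DN1 and 62.3 to 78.0 TPM in DN2a cells, and its part in these levels was not tested. Ccr6 was at 0.114, 0.302 and 0.375 TPM in DN1 cells, at 0.0450 TPM in 1 of the DN3a samples and listed at 0 in all other T-lineage samples.

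The ligands were expressed mainly in LMPP. Ccl3 was at 76.2 and 50 TPM in LMPP, 8.38, 8.71 and 10.8 TPM in DN1 and 0.533, 1.12 and 2.46 TPM in DN2a cells. Ccl4 was at 85.5 and 44.8 TPM in LMPP, 10.2, 10.4 and 11.8 TPM in DN1 and 1.70, 1.77 and 2.43 TPM in DN2a cells. Both fell at each step, Ccl3 by 2.72 ± 0.48 and 2.90 ± 0.43 (limma, adjusted p = 0.00103 and 0.000234) and Ccl4 by 2.51 ± 0.31 and 2.41 ± 0.28 (adjusted p = 4.74e-05 and 2.37e-05), and these calls held under every alternative run, with rescaled changes of -2.74 and -2.26 into DN2a. In DN2b cells the genes parted, because Ccl3 was listed at 0 in all 3 samples (adjusted p = 4.06e-05) whereas Ccl4 was at 2.51, 4.28 and 4.8 TPM. The rise of Ccl4 (0.90 ± 0.28, adjusted p = 0.0358) was lost after rescaling (0.81, adjusted p = 0.0587) and on leaving out any of 4 of the samples.

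In DN3a cells Ccl4 was at 11.1 and 7.79 TPM and Ccl3 at 1.94 and 1.29 TPM, and both were higher than in DN2b cells (Ccl3 adjusted p = 1.98e-05, and 6.37e-05 after rescaling, Ccl4 1.30 ± 0.31, limma, adjusted p = 0.00403, rescaled 1.02, lost without the DN3a sample at 11.1 TPM). In DN3b cells Ccl4 fell to 0.492 and 0.453 TPM (-4.04 ± 0.34, adjusted p = 4.87e-07, rescaled -3.77) and Ccl3 was at 0.137 and 0 TPM (adjusted p = 9.84e-05, and 0.000374 after rescaling). In Rag2-/- DN3a cells Ccl4 was at 0.940 and 0.696 TPM (-3.37 ± 0.34, adjusted p = 2.6e-05, rescaled -3.18) and Ccl3 at 0.177 and 0.194 TPM (-2.56 ± 0.53, adjusted p = 0.00349, rescaled -2.37), each below both wild-type DN3a samples. The sum of immediate-early genes was 1704 and 561 TPM in the LMPP and 2375 and 887 TPM in the DN3a samples, in both stages with the higher value in the sample with more Ccl3 and Ccl4. The LMPP sample with the lower sum had 50 TPM of Ccl3 and 44.8 TPM of Ccl4. The sums were 859 and 1137 TPM in the Rag2-/- DN3a samples, and the part of these genes in the ligand levels was not tested.

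Other genes of the pathway were surveyed with lists of 22 further receptors, 35 further ligands and 43 signalling components. Between ∆/∆ and +/+ cells, 6 of the 15 receptors tested were higher and 2 lower, 3 of 10 ligands were higher and 1 lower, and 10 of 40 signalling genes were higher and 3 lower, beside 31.7% of all genes called. Their median changes were 1.17, 0.63 and -0.03, beside 0.01 over all genes. The receptor genes S1pr3 (3.59 ± 0.31), which encodes a receptor of sphingosine-1-phosphate, and Cxcr3 (3.26 ± 0.37), which encodes the receptor of the interferon-induced chemokines, were among those higher. Cxcr3 was lower in Prd/∆ than in ∆/∆ progenitors (-1.79 ± 0.29, limma, adjusted p = 0.0412), the opposite direction to Ccl3 and Ccl4.

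Ccl9, a further chemokine ligand gene, was higher in all 4 genotypes without CRD1. It was at 0.752 ± 0.619 TPM in +/+ cells (n = 5) and rose by 5.06 ± 0.62 in ∆CRD1/-, by 4.91 ± 0.62 in ∆CRD1,2/-, by 4.00 ± 0.71 in ∆CRD1/∆CRD1 and by 5.30 ± 0.78 in ∆CRD1,2/∆CRD1,2 cells. It was also higher in ∆/∆ (3.22 ± 0.57) and in Prd/∆ progenitors (3.32 ± 0.48 against +/∆). Among regulators of G protein signalling, Rgs10 was higher in ∆OP/∆OP (2.46 ± 0.12), in ∆OP,HD/∆OP,HD (2.52 ± 0.12) and in ∆CRD2/- cells (2.64 ± 0.21), genotypes in which limma called no member. Rapgef3, which encodes an exchange factor of the adhesion regulator Rap1, was higher in ∆CRD1,2/- (2.67 ± 0.23), ∆CRD1,2/∆CRD1,2 (2.61 ± 0.28), ∆/∆ (3.39 ± 0.21) and Prd/∆ cells (4.02 ± 0.09).

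Over the T-lineage stages, most signalling genes were lower at the DN1 to DN2a step. Of 33 signalling genes tested, 26 were lower and 3 higher (20 and 3 after rescaling), beside 33.7% of all genes called, with a median of -0.68 beside -0.18 over all genes, and of 15 receptors 7 were lower and 1 higher. S1pr1, the receptor for exit from lymphoid tissue, fell by 3.49 ± 0.41 (rescaled -3.36) and the desensitizing adaptor Arrb1 by 1.98 ± 0.24 (rescaled -1.83) at this step. From DN2a to DN2b the ligand Ccl5 fell by 4.02 ± 0.22 and Ccl9 by 3.65 ± 0.38, while Pik3r5, a regulatory subunit of the phosphoinositide 3-kinase activated by G proteins, rose by 2.13 ± 0.24 and again by 2.25 ± 0.27 into DN3a (rescaled 1.97). From DN3a to DN3b 20 of 33 signalling genes were lower and 2 higher, beside 53.4% of all genes called, and 15 were lower and 6 higher after rescaling. The lower genes included the G protein subunit Gng2 (-3.45 ± 0.14, rescaled -3.18) and the phospholipase Plcb2 (-2.41 ± 0.19, rescaled -2.13). The median was -0.60 beside -0.41 over all genes, and -0.32 beside -0.15 after rescaling.

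Genes with patterns most like those of the members were identified over the 31 libraries by the Pearson correlation of log2(TPM + 0.1), among 11025 genes, for the 6 members above 5 TPM in a group. The points share genotypes, so that r is given as a description. For Ccr7 these were Myl4 (r = 0.92), Mgme1 (0.91) and Ociad2 (0.90), for Cxcr5 Cand2 (0.85), Selplg (0.84), which encodes a selectin ligand, and Arap3 (0.84), and for Ccr9 Havcr1 (0.91), Clec10a (0.87) and Rtn4rl1 (0.85). For Ccl3 they were Dlg2 (0.84), Spice1 (0.79) and Abcc5 (0.78), for Cxcr4 Mctp1 (0.76), Ifngr2 (0.73) and a row for the membrane form of IgD heavy chain (0.73), and for Ccl4 Ddit4 (0.71), Ccl3 (0.68) and Usp54 (0.63). Myl4 ranged from a group mean of 107 TPM in ∆OP/∆OP cells, the genotype with the lowest mean of Ccr7, to 2303 TPM in the ∆/∆ progenitors of the Prd experiment.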

How the data were processed

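RNA-seq tables of 48 samples were used. ChIP-seq and ATAC-seq samples were not analysed here. Reads trimmed to 50 nucleotides were mapped by the authors to mm10 (GRCm38) with STAR 2.4.2a and assigned to RefSeq genes with Rsubread, and TPM of 25579 genes were deposited. The authors deposited raw counts for 2 samples. For T-lineage samples the authors used TopHat (version 1.4.1) and mm9 and deposited 2 values per gene, on a scale like that of TPM, and an entry of exactly 1 lies outside the column totals. The mean of both values was used, with 1 taken as 0. The 8 tables without gene names took the row order of the other 23, which was identical in all of them.

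Whole reads were recovered from TPM with gene lengths implied by the deposited counts, and 100% of values tested were whole within 0.1 reads. Depths were 10018678 to 43784791 reads, so that precision is lowest for genes near 0. Whether counting used strand was not given in the sources used here.

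Tests used limma (version 3.58.1, R 4.3.3) on log2(TPM + 0.1), two-sided, with a trend in eBayes, read length as a term where lengths were mixed, and Benjamini-Hochberg adjustment over all genes that passed 1 TPM in some sample of the model. Central domains were compared with +/+ replicates 3 and 4. Alternatives were edgeR (4.0.16) and DESeq2 (1.42.0) on recovered reads, a pseudocount of 1, no filter, median-of-ratios scaling, samples of 1 read length, either mm9 value alone, a replicate block and leaving out each sample. The fits were tested on simulated data. All 9 members were named. Alike genes were the 3 with the highest r for each member above 5 TPM, and pathway genes were named when called with a fold above 3 and a mean above 5 TPM, at most 4 per comparison. Members and lists were chosen with earlier results of these data known.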

Additional observations from a re-analysis of the deposited data

Results flagged for a closer look

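In Pax5 +/+ pro-B cells, the group with 5 samples, 3 of the 9 genes had 1 sample far from the others by Dixon's criterion, and in each case it was replicate 1, a library with 50-nucleotide reads. Cxcr4 was highest there, at 761 TPM, Cxcr5 was lowest, at 17.0 TPM, and Ccr6 was the only sample above 0, at 0.0828 TPM or 2 reads. With the other 4 samples at exactly 0, any value above 0 meets this criterion, so that the entry for Ccr6 rests on 2 reads. For values without such ties chance flags about 1 in 20 groups. Without this sample Cxcr5 was called lower in ∆CRD2/- pro-B cells (limma, adjusted p = 0.023), and the calls of Cx3cr1 in ∆CRD1/- cells and in ∆/∆ progenitors were lost.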

How the results depend on the processing

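Of 52 called changes of members, 27 were called under every alternative run, 23 were lost by leaving out some sample, and none changed sign. Leaving 1 sample in a group also lowered the number of all genes called in most comparisons, so that such losses are not particular to the members. The numbers of members called moved by more than 1.5 times, or to or from 0, as follows. With DESeq2 there was 1 for ∆OP/∆OP, 1 for ∆HD/∆HD, 1 for ∆CRD2/-, 1 for ∆CRD1,2/- against ∆CRD1/-, 2 for ∆CRD1,2/∆CRD1,2 and 1 for the interaction, and with edgeR 1 for ∆CRD1,2/- against ∆CRD1/- and 2 for ∆CRD1,2/∆CRD1,2. A pseudocount of 1 gave 1 for ∆CRD1/-, 0 for ∆CRD1,2/∆CRD1,2 against ∆CRD1/∆CRD1 and 2 for ∆/∆ against +/∆. Without the filter on low values there were 1 for ∆CRD1/-, 3 for ∆/∆, 0 for ∆CRD1/∆CRD1, 0 for ∆CRD1,2/∆CRD1,2 against ∆CRD1/∆CRD1, 0 for Prd/∆ against ∆/∆ and 2 for DN2b, as more genes were adjusted for. Median-of-ratios scaling gave 0 for ∆CRD1/∆CRD1. Samples of 1 read length gave 1 for ∆CRD1/- and 1 for ∆CRD1,2/- against ∆CRD1/-. For the other shifts the cause was not tested.

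Leaving out each sample in turn gave 0 to 1 for ∆CRD2/-, 1 to 2 for ∆CRD1/-, 2 to 5 for ∆/∆, 0 to 1 for ∆CRD1/∆CRD1, 1 to 2 for ∆CRD1,2/∆CRD1,2, 0 in every case for ∆CRD1,2/∆CRD1,2 against ∆CRD1/∆CRD1, 0 to 4 for Prd/∆ against ∆/∆, 3 to 7 for Prd/∆ against +/∆, 2 to 3 for ∆/∆ against +/∆, 2 to 4 for DN2b, 2 to 5 for DN3a and 3 to 5 for Rag2-/- DN3a. Differences that were not called reversed in 3 cases, with log2 changes from -2.16 to 0.50 for Ccl4 in ∆CRD1,2/- (0.50 without its replicate 2), from -0.090 to 0.53 for Cxcr4 in Prd/∆ against +/∆ (-0.090 without Prd/∆ replicate 1) and from -0.32 to 2.23 for Cx3cr1 in Rag2-/- DN3a cells (-0.32 without their replicate 2).

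Samples with the same replicate number did not deviate together (r = -0.276 to 0.142), so that the numbers do not pair them. A replicate block gave 0 members for ∆CRD1/-, 1 for ∆CRD1,2/-, 0 for ∆CRD1/∆CRD1 and 0 for ∆CRD1,2/∆CRD1,2 against ∆CRD1/∆CRD1. Crossed pairing in the Prd experiment, added after the data were seen, gave 2, 6 and 3 calls. For the central domains no paired fit was possible because the mutants share no numbers with the +/+ samples used. Depth limits Ccr6, Ccr2 and Cx3cr1, which rest on few reads.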
